A study of Daphnia magna with 20 samples.

Results

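The set described here holds 200 of the 26646 transcript targets measured in whole Daphnia magna, and its label says that all 3 exposures lowered them. It was chosen by the measured values. A level is the estimated read count scaled to a common library total (CPM), and 0.5 was added to each median level over the 5 libraries of a group. A target was kept where the medians in the lower dose, the higher dose and the ions were each at most 0.67 times the control median, where the control median was at least 2, and where the higher dose and the ions were each more than 0.5 times the lower dose and the ions more than 0.5 times the higher dose. A control median of at least 2 was reached by 12634 targets, 348 met the whole rule, and the 200 with the smallest value of the largest of their 3 ratios were kept. All 4 groups chose the members, so differences between these groups are given below as descriptions. Calls from a fit over all tested targets are counted beside the share called among all of them, and are not evidence that the members differ. In 9 of the 200 (4.5%), all 5 control libraries lay above all 15 exposed libraries, against 1.7% of the 16163 tested targets. Tested targets were not held to the control minimum. In 93 members, controls 2 and 5 both lay more than 2-fold below the lowest of controls 1, 4 and 6. The exposed medians are lower by the rule, but in most members some control library did not lie above all exposed libraries. The members are therefore called here the targets with lower exposed medians.

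The animals were wild-type daphnids, 5 days old, sampled whole after 48 h. The groups were a lower dose of lithium cobalt oxide nanomaterial (LCO, 1 mg/L), a higher dose of it (10 mg/L), dissolved ions (66 µg/L lithium from lithium chloride with 15 µg/L cobalt from cobalt chloride), and control animals with no addition. All groups were kept in moderately hard water and fed alfalfa, and each of the 5 libraries in a group came from a pool of 10 animals. The ions match what the higher dose gives off within the exposure time, so that group asks how far dissolved metal alone gives the same RNA levels. The labels do not say whether pools were kept in separate vessels, and every spread below is a spread between these pools. The treatment tag of replicate 1 in the higher dose says untreated, and that library was placed by its title and the series description.

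Daphnia magna is a filter-feeding freshwater crustacean, and particles suspended in its water reach its gut with the food. LCO is a layered metal oxide from battery cathodes, and in water it sheds lithium and cobalt. Cobalt is a trace metal that in excess competes with iron and other divalent metals in proteins, and lithium inhibits enzymes of phosphate metabolism and kinase signalling in animals. RNA from a whole animal mixes gut, muscle, nerve, epidermis, haemocytes and ovary, so fewer cells of a type and less RNA per cell cannot be told apart. The target identifiers carry no gene names in the sources used here (0 of 26646 matched the gene table), so the roles of the members, their place in the genome and cell type markers are not given.

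Total estimated counts ran from 20744445 to 44181066 per library. The members took 0.457% to 0.618% of the counts in the 5 libraries of the lower dose, 0.436% to 0.792% at the higher dose, 0.266% to 0.575% in the ions and 0.731% to 1.66% in the controls. Control libraries 1, 4 and 6 gave 1.34%, 1.44% and 1.66%. Control libraries 2 and 5 gave 0.761% and 0.731%, between the 2 highest exposed libraries, at 0.792% and 0.646%. These 2 controls stood apart from controls 1, 4 and 6 over many members, and the counts of called members and of targets meeting the rule are given below with and without them.

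**Figure D1:**
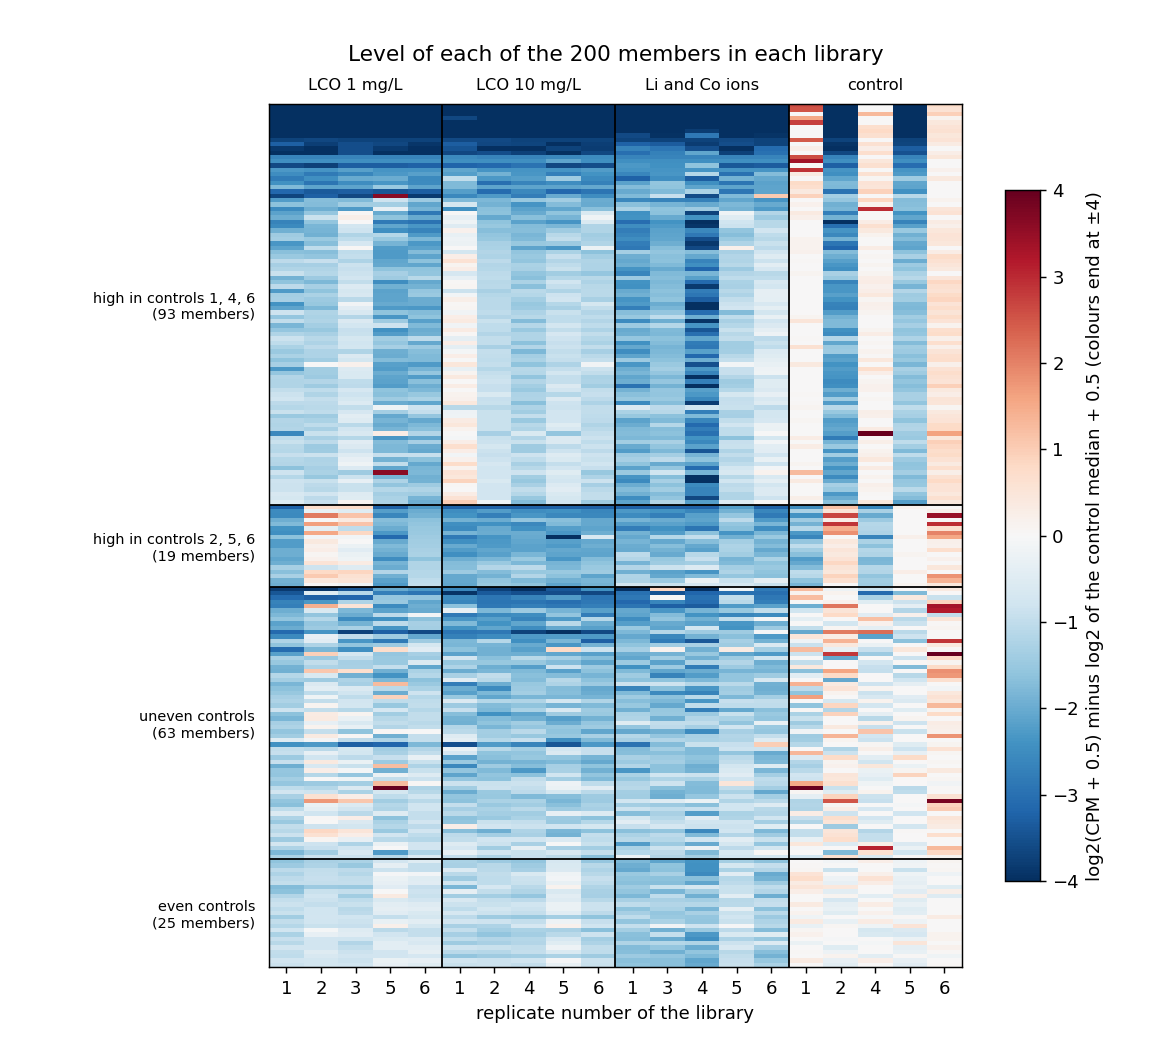
Level of each member (rows) in each of the 20 libraries (columns, by group and replicate number) as log2(CPM + 0.5) minus the log2 of the member's control median, with colours ending at ±4 and rows sorted into 4 control patterns. In the upper block of 93 members, controls 2 and 5 have the blue of the exposed libraries, and in the block of 25 members with even controls the 5 control columns are alike.

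Over the 200 members, the median of the log2 ratio to control was -1.28 for the lower dose, -1.33 for the higher dose and -1.64 for the ions, against 0.00, 0.06 and 0.02 over the 12634 targets with the same control minimum. These medians describe what the rule selected. The middle member had a level of 6.49 CPM + 0.5 at the lower dose, 5.66 at the higher dose and 5.55 in the ions, against 18.7 in the controls. Per length, the control medians of the members spanned 0.181 to 1143 TPM, so the set holds both rare and abundant transcripts. All 3 exposed medians lay more than 2-fold below the control median in 99 members, more than 4-fold in 26 and more than 8-fold in 11. The lowest exposed median was that of the ions in 100 members, of the higher dose in 60 and of the lower dose in 34, with ties in the other 6. In 24 members the 3 exposed medians lay within 1.25-fold of each other. At the edge of the limit, the last member kept had a largest ratio of 0.597 and medians of 60.5, 54.5 and 33.0 CPM + 0.5 in the lower dose, the higher dose and the ions, against 101 in the controls. The first target left out had a largest ratio of 0.598 and medians of 1.04, 1.49 and 0.926, against 2.49 in the controls.

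The spread among the controls was the main feature of these targets that the medians do not show. Within a group, log2(CPM + 0.5) had an SD whose median over the members was 0.525 at the lower dose, 0.393 at the higher dose and 0.517 in the ions, against 1.08 in the controls. Over the 12634 targets the same medians were 0.179, 0.179, 0.262 and 0.224. The highest control library exceeded the lowest by a median of 5.43-fold over the members and 1.46-fold over the 12634 targets. Control 5 lay more than 2-fold below the control median in 102 members, control 2 in 99, control 1 in 38, control 4 in 25 and control 6 in 0. A rule on the median of 5 controls lets in a target that is high in 3 of them, and this describes the largest share of the set.

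**Figure D2:**
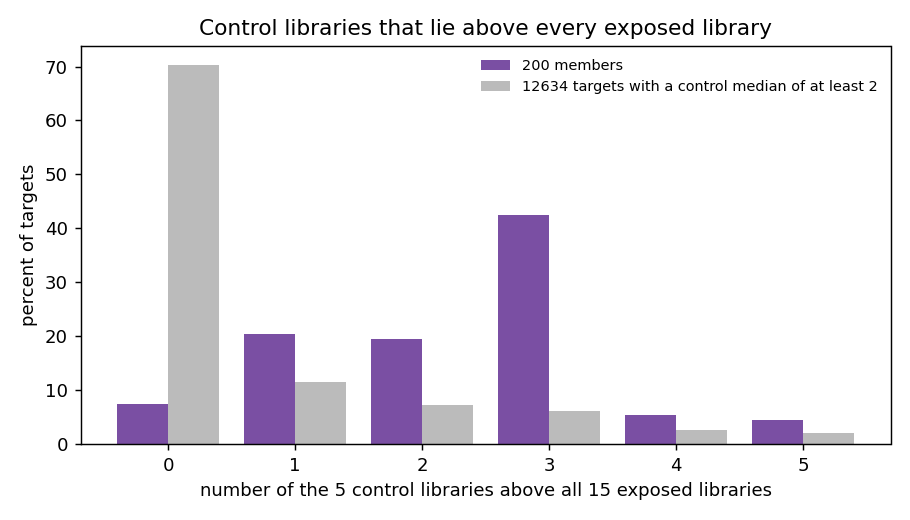
Percent of targets (vertical axis) by how many of the 5 control libraries lay above all 15 exposed libraries (horizontal axis), for the members and for the 12634 targets with a control median of at least 2. The members peak at 3 control libraries, with 42.5%, and 4.5% have all 5. Among all targets with that control minimum, 6.17% have 3 and 2.15% have all 5.

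Exactly 3 control libraries lay above all 15 exposed libraries in 85 members. For the other counts, 0 controls were above in 15 members, 1 in 41, 2 in 39, 4 in 11 and 5 in 9. Over all targets with the same control minimum, 0 controls were above in 70.3%, 1 in 11.6% and 2 in 7.19%. In the same targets, 3 were above in 6.17%, 4 in 2.56% and 5 in 2.15%. Among the 16163 targets that passed the filter on low counts, all 15 exposed libraries lay below all 5 controls in 1.7%. Taking one exposure at a time, every library of the lower dose lay below every control in 20 members, every library of the higher dose in 53 and every ion library in 47. The background for these counts was 2.81%, 8.25% and 12.1% of the tested targets, which were not held to the control minimum of the members. Because the rule used the same medians, these shares are printed as background only.

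The members fell into 4 control patterns, which were defined after their values had been seen. In 93 members, controls 2 and 5 both lay more than 2-fold below the lowest of controls 1, 4 and 6, and this held for 2.41% of the 12634 targets. In 19 members controls 1 and 4 lay more than 2-fold below the lowest of controls 2, 5 and 6, which held for 1.16% of the 12634. In 25 members the 5 controls spanned less than 2-fold, against 76.5% of the 12634, and the other 63 members had uneven controls of other kinds. Seen from the patterns, 119 of the 305 targets high in controls 1, 4 and 6 met the rule before its limit of 200 (39.0%), and 22 of the 146 high in controls 2, 5 and 6 did (15.1%). Of the 9662 targets with even controls, 106 did (1.1%).

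**Figure D3:**
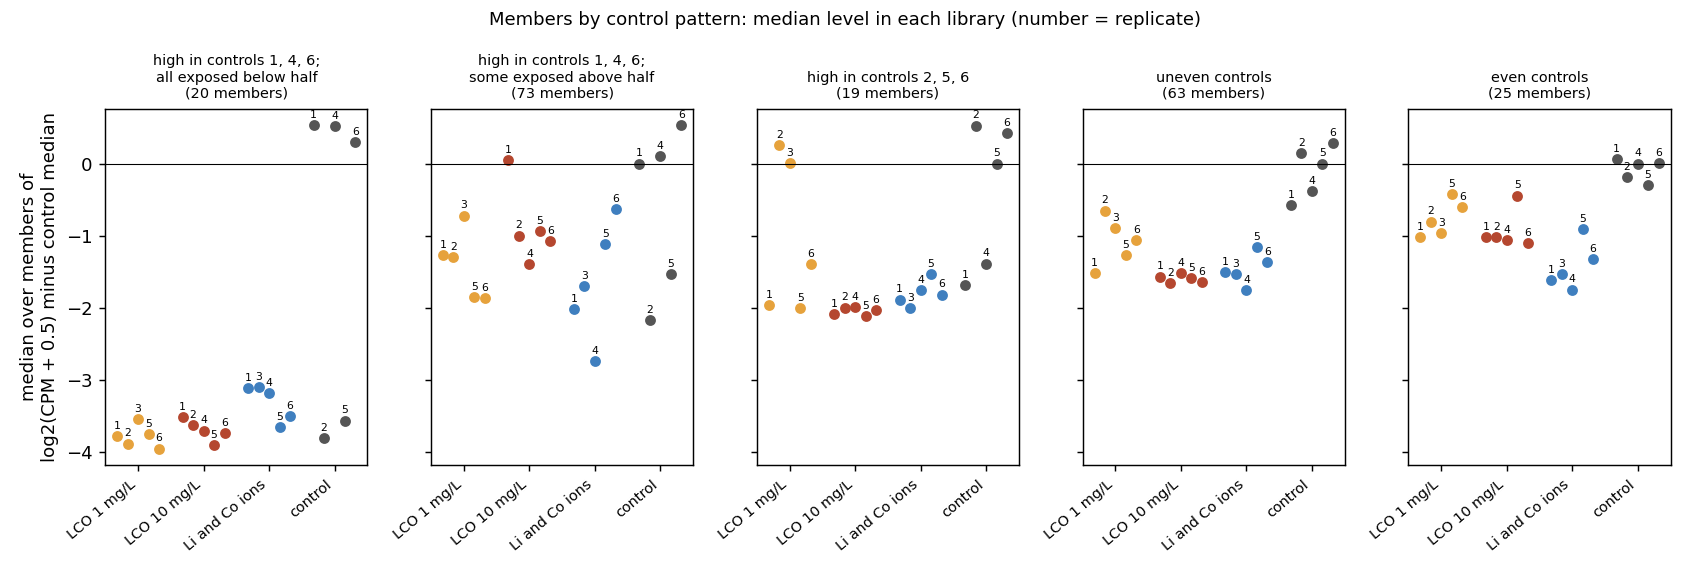
Median over the members of each control pattern (panels) of log2(CPM + 0.5) minus the log2 of the control median, in each of the 20 libraries, with groups in the order lower dose, higher dose, ions and control. The members high in controls 1, 4 and 6 are drawn in separate panels of 20 and 73, in which control 2 lies at -3.81 and -2.17 and control 5 at -3.57 and -1.54. With even controls all 5 lie between -0.293 and 0.0613.

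In the 93 members high in controls 1, 4 and 6, the median difference from the control median was -2.25 on the log2 scale in control 2 and -1.61 in control 5. The exposed libraries spanned -1.98 to -0.86 at the lower dose, -1.51 to -0.08 at the higher dose and -2.75 to -0.75 in the ions. Low values in controls 2 and 5 are part of how these 93 were defined, and low exposed medians are part of the rule. Every library of the lower dose lay below every control in 3 of the 93, every library at the higher dose in 1 and every ion library in 1. Over all tested targets these shares were 2.81%, 8.25% and 12.1%, and those among all targets of this pattern were not computed. Their median length was 1464 bases, against 2074 bases over the 12634 targets, and their median control level was 33.8 TPM, a count scaled by length and depth, against 15.8 TPM.

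The 93 divide by how low the exposed libraries were. In 20 of them, every exposed library lay more than 2-fold below all of controls 1, 4 and 6, and the members were not alike in how much RNA the low libraries held: the highest exposed library ran from 0.0367 CPM in 1 member to 30.8 CPM in another. The median level over these 20 was 0.251 to 0.485 CPM in the libraries of the lower dose, 0.278 to 0.716 at the higher dose and 0.342 to 0.795 in the ions. It was 31.3, 25.3 and 17.9 CPM in controls 1, 4 and 6, against 0.491 and 0.546 CPM in controls 2 and 5. Of the 20, 12 passed the filter on low counts.

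KZS03199 and KZS01586 had the smallest ratios to control of all members, in each of the 3 exposures. Values below follow the replicate numbers, which are 1, 2, 3, 5 and 6 at the lower dose, 1, 3, 4, 5 and 6 in the ions, and 1, 2, 4, 5 and 6 in both other groups. KZS03199, a target of 1251 bases, had 0.0285, 0.158, 0.0354, 0.239 and 0 CPM at the lower dose, 0.22, 0.0644, 0.0679, 0.0309 and 0.176 CPM at the higher dose, and 0.0804, 0.0711, 0.0482, 0.308 and 0.143 CPM in the ions. Its controls 1, 2, 4, 5 and 6 had 431, 0, 70.1, 0.0393 and 116 CPM. The 15 exposed libraries together held 50 estimated counts of it, and 3 controls held it in abundance while the other 2 were as low as the exposed libraries. KZS01586, of 610 bases, had 0.228, 0.238, 0.106, 0.0796 and 0 CPM at the lower dose, 0.147, 0.0966, 0, 0.124 and 0.0754 CPM at the higher dose, and 0, 0.0355, 0.145, 0.0342 and 0.19 CPM in the ions. Its controls had 282, 0.181, 49.0, 0 and 73.1 CPM in the same order. Both failed the filter on low counts, so neither has a fitted fold change, and in both the exposed and control libraries overlap.

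Their controls also kept a shared order. Control 1 held 6.11 times the level of control 4 for KZS03199 and 5.71 times for KZS01586. Among the 20, 8 had such a ratio between 2.93 and 7.60, with a median of 6.10, and 11 had a ratio between 0.579 and 1.16, with a median of 0.660. The 1 member left, at 0.404, had the highest control count of all 200. The ratio over all 93 had a median of 0.936.

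The other 73 members high in controls 1, 4 and 6 had intermediate levels in the exposed libraries. Library 1 of the higher dose, whose treatment tag says untreated, stood apart in them. Its median difference from the control median was 0.05, and 43 of the 73 were at or above their control median in it. In the members with even controls the same library lay at -1.02, among the others of the higher dose. The other 4 libraries at the higher dose lay between -1.40 and -0.94. The ions ran from -2.74 in library 4 to -0.63 in library 6, and the lower dose from -1.87 in library 6 to -0.72 in library 3. Controls 2 and 5 lay at -2.17 and -1.54. The order of the libraries was thus not the order of the groups.

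KZS11386 and KZS16607, which had the highest ratios of the higher dose to the ions, show this pattern. KZS11386 had 15.6, 13.5, 17.6, 7.51 and 9.11 CPM at the lower dose, 45.7, 19.1, 14.2, 24.7 and 13.6 CPM at the higher dose and 4.3, 9.6, 1.72, 14.2 and 26.2 CPM in the ions. Its controls had 36.9, 6.32, 41.6, 11.1 and 72.0 CPM. Library 1 of the higher dose exceeded 4 of the 5 controls, and control 2 lay below every library of either LCO dose. KZS16607 had 16.2, 7.63, 5.77, 8.38 and 6.38 CPM at the higher dose and 3.1, 3.62, 1.64, 5.47 and 8.8 CPM in the ions, against 13.2, 2.27, 13.6, 4.05 and 17.7 CPM in the controls. KZS11386 had fractional counts in all 20 libraries, so its reads could be shared with a similar target.

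KZS21327 and KZS10423, with the highest ratios of the higher to the lower dose, belong to the same pattern. KZS21327 had 0.698, 0.966, 0.543, 1.27 and 0.779 CPM at the higher dose and 0.057, 0.238, 0.0707, 88.1 and 0 CPM at the lower dose, against 12.9, 2.25, 6.67, 2.79 and 6.59 CPM in the controls. In the ions it had 1.57, 3.27, 0.0964, 1.61 and 14.3 CPM. Library 5 at the lower dose and library 6 of the ions exceeded every control, which the group medians do not show. KZS10423 had 39.1, 14.2, 9.51, 8.17 and 28.4 CPM at the higher dose and 6.44, 14.3, 44.8, 5.77 and 5.29 CPM at the lower dose, against 44.0, 2.01, 53.8, 6.53 and 55.5 CPM in the controls.

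The 19 members high in controls 2, 5 and 6 had the reverse order of controls and were longer, with a median length of 4204 bases against 2074 bases over the 12634 targets. In them controls 1 and 4 had median differences of -1.69 and -1.39 from the control median. The lower dose was split too. Libraries 2 and 3 lay at 0.25 and 0.01, and libraries 1, 5 and 6 at -1.96, -2.01 and -1.40. Library 2 reached the control median in 15 of the 19 and library 3 in 10. The 5 libraries of the higher dose all lay between -2.12 and -1.99, and the ions between -2.01 and -1.53.

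KZS16864, a target of 4998 bases with a high ratio of the lower dose to the ions, shows the split. It had 2.99, 13.6, 8.74, 4.14 and 6.04 CPM at the lower dose, 2.64, 4.12, 2.94, 3.5 and 3.74 CPM at the higher dose and 2.25, 2.95, 1.93, 5.27 and 2.81 CPM in the ions. Its controls had 7.92, 49.8, 7.7, 18.0 and 28.1 CPM. All libraries at the higher dose and in the ions lay below all controls, whereas 2 libraries at the lower dose lay above controls 1 and 4. KZS17850, the other target of that kind, has uneven controls: it had 1.05, 26.8, 14.4, 1.27 and 2.17 CPM at the lower dose and 0.844, 0.568, 0.53, 1.64 and 1.81 CPM in the ions, against 2.12, 44.7, 9.74, 7.44 and 103 CPM in the controls.

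**Figure D4:**
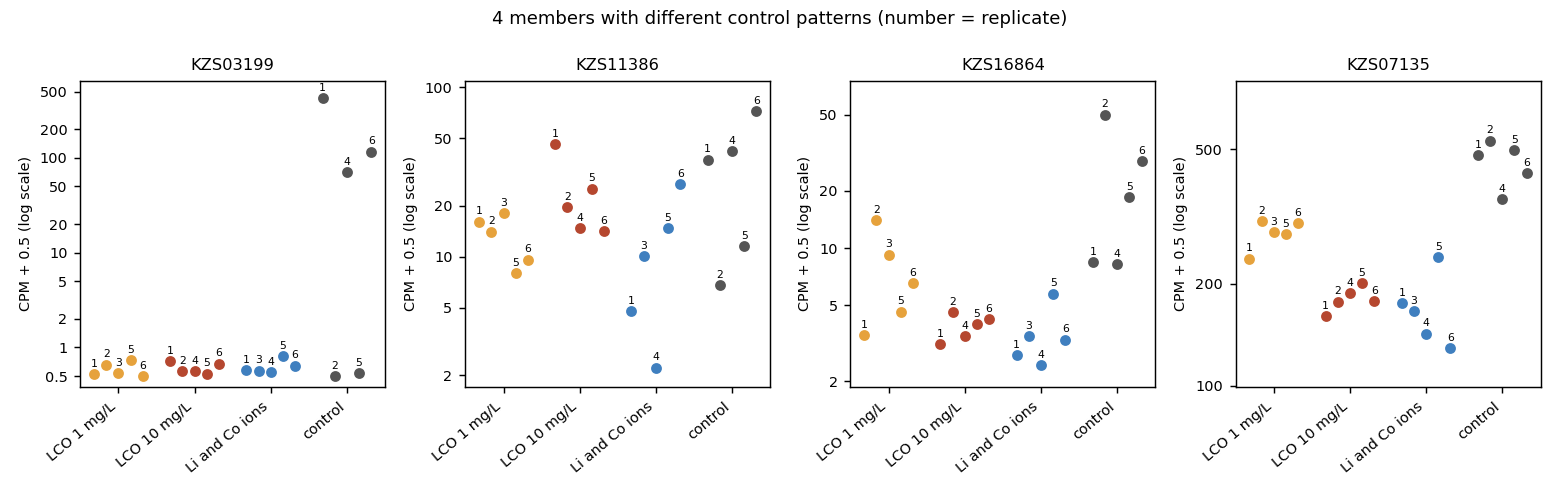
CPM in each library (points, log axis) with 0.5 added, for 4 members of different control patterns, by group in the order lower dose, higher dose, ions and control. KZS07135 has all 5 controls, 355 to 529.6 CPM, above all exposed libraries. KZS03199 has 3 high controls and 2 at the level of the exposed libraries, from 0 to 431 CPM.

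The 25 members with even controls have, by the definition of this pattern, 5 controls that span less than 2-fold. Their control levels were high, with a median of 93.1 TPM against 18.1 TPM over all members, and their ratios to control lay nearer to 1 than those of the whole set. Their median log2 ratio to control was -0.81 for the lower dose, -0.99 for the higher dose and -1.53 for the ions. The ion libraries lay between -1.75 and -0.90 relative to the control median on the log2 scale and the 5 controls between -0.29 and 0.06. Every ion library lay below every control in 21 of the 25, every library at the higher dose in 9 and every library at the lower dose in 8. The shares over all tested targets were 12.1%, 8.25% and 2.81% in that order. Those among all targets with even controls were not computed. Library 5 at the lower dose and library 5 at the higher dose lay nearest to the controls, at -0.42 and -0.44.

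In 9 members all 5 controls lay above all 15 exposed libraries, and 7 of these had even controls. KZS07135 and KZS13955, chosen after their values had been seen, have the most counts among the 9, and their control medians were 263 and 171 TPM. KZS07135, of 2433 bases, had 237, 307, 285, 280.5 and 302 CPM at the lower dose, 159.7, 177, 188, 200.1 and 177 CPM at the higher dose and 175, 165, 142, 240.0 and 128 CPM in the ions. Its controls had 479, 529.6, 355, 497 and 424 CPM. The lowest control lay above the highest exposed library, and the LCO doses did not overlap each other. KZS13955, of 3279 bases, had 188, 241, 182, 308 and 262 CPM at the lower dose, 153, 166, 181, 289.8 and 175 CPM at the higher dose and 176, 185, 175, 224 and 281 CPM in the ions, against 339, 408, 386, 567 and 409.8 CPM in the controls. Here the 3 exposures overlapped one another and none reached a control.

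Over the 9, the ratio of medians to control ran from 0.235 to 0.594 for the lower dose, from 0.133 to 0.490 for the higher dose and from 0.151 to 0.454 for the ions. The 9 were picked out by these same values, so no test is given for them. The fitted log2 fold change of KZS07135, from the edgeR quasi-likelihood fit over all 20 libraries, was -0.75 ± 0.14 (SE) for the lower dose, -1.44 ± 0.14 for the higher dose and -1.48 ± 0.14 for the ions. That of KZS13955 was -0.89 ± 0.20, -1.22 ± 0.20 and -1.06 ± 0.20 in the same order. Each SE was derived as the size of the fold change over the square root of the F statistic of its test. Both targets were picked by these values, so the SEs are no test of them.

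The 63 members with other uneven controls had a median control level of 6.28 TPM. Their 5 libraries at the higher dose were closely alike, with median differences between -1.66 and -1.52 from the control median, and those at the lower dose ranged from -1.52 to -0.65. Every library at the higher dose lay below every control in 34 of them, every ion library in 22 and every library at the lower dose in 9. The shares over all tested targets were 8.25%, 12.1% and 2.81% in that order. Those among all targets with uneven controls were not computed. KZS00350 and KZS14615 had the lowest ratios of the higher to the lower dose. KZS00350 had 0.367, 0.547, 0.588, 1.55 and 0.402 CPM at the higher dose and 1.25, 1.56, 1.06, 2.47 and 5.21 CPM at the lower dose, against 5.64, 10.2, 3.96, 6.37 and 2.58 CPM in the controls. KZS14615 had 1.54, 1.06, 1.09, 1.21 and 0.905 CPM at the higher dose and 2.54, 7.1, 4.32, 1.59 and 2.61 CPM at the lower dose, against 2.07, 5.79, 2.85, 5.27 and 5.61 CPM in the controls. In both, all libraries at the higher dose lay below all controls, and the lower dose overlapped them.

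KZS14190 and KZS08887 had the lowest ratios of the higher dose to the ions. KZS14190 had 6.9, 7.02, 3.67, 0.959 and 3.97 CPM at the higher dose and 15.2, 23.9, 19.8, 19.8 and 51.6 CPM in the ions, with 5.76, 10.2, 3.71, 5.18 and 3.96 CPM at the lower dose. Its controls had 12.5, 229.8, 254, 25.4 and 53.8 CPM. Both LCO doses lay below every ion library and every control, and the ions overlapped the controls. KZS08887 had 1.73, 4.8, 3.55, 1.89 and 4.67 CPM at the higher dose, 2.77, 7.18, 13.4, 12.9 and 50.3 CPM in the ions and 4.28, 4.67, 2.16, 2.31 and 6.91 CPM at the lower dose, against 11.1, 25.1, 26.5, 17.7 and 26.9 CPM in the controls. Library 6 of the ions was above every control.

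In the fit over all tested targets, 192 of the 200 members passed the filter on low counts. Of the 192, 59 were called lower for the lower dose against control (edgeR, Benjamini-Hochberg adjusted p under 0.05), where 3.69% of all tested targets were. For the higher dose 119 were called lower (background 16.7%), and for the ions 147 were (background 24.7%). The rule used these contrasts, so the counts are read only beside each other. Called lower in all 3 were 52 of the 192, and 34 were called in none. The share of all tested targets called in all 3 or in none was not computed, so nothing is read from these counts. By control pattern, with no test of the difference between patterns, the counts were as follows. The share called among all targets of the same pattern was not computed, and the patterns are defined by control levels that the fit also uses. With even controls 14 of 25 were called lower at the lower dose, 24 at the higher dose and 24 in the ions, and with controls 1, 4 and 6 high 20, 19 and 54 of the 85 tested were. With controls 2, 5 and 6 high, 1 of 19 was called at the lower dose, 19 at the higher dose and 15 in the ions. Of the 63 with other uneven controls, 24 were called at the lower dose, 57 at the higher dose and 54 in the ions.

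The counts moved with the controls used, as did the share called over all tested targets. Without controls 2 and 5, 122 members were called lower at the lower dose, 149 at the higher dose and 169 in the ions, with backgrounds of 6.4%, 17.8% and 26.8% in that order. Without controls 1, 4 and 6, which leaves 2 controls, the counts were 12, 66 and 82, with backgrounds of 1.16%, 9.82% and 14.0%. The rule itself was met by 516 targets without controls 2 and 5, among them 158 of the 200, and by 250 without controls 1, 4 and 6, among them 81 of the 200. With the lowest control in place of the median control, 16 targets met it, and 11 of them were among the 200. Members tested were 200 without controls 2 and 5 and 192 without controls 1, 4 and 6. These alternatives were added after the data had been seen. The controls to leave out were chosen by the levels of the members in them, so the direction of these shifts is not evidence about the members.

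The exposures were also set against each other, although the rule limits these differences. The higher dose against the lower gave 14 members lower and 0 higher, with backgrounds of 4.7% and 1.58% of the tested targets. The higher dose against the ions gave 6 lower and 8 higher, with backgrounds of 13.8% and 11.3%. The lower dose against the ions gave 3 lower and 41 higher, with backgrounds of 20.8% and 20.1%.

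To read each library on targets that it did not help to choose, the rule was applied 20 times with 1 library left out, and the left-out library was set against the control median of the others over the 200 targets then chosen. The median difference on the log2 scale was -1.25, -0.94, -0.69, -1.33 and -1.26 for libraries 1, 2, 3, 5 and 6 of the lower dose. It was -0.82, -1.37, -1.50, -1.29 and -1.36 for libraries 1, 2, 4, 5 and 6 of the higher dose and -2.0, -1.73, -2.36, -1.11 and -1.20 for libraries 1, 3, 4, 5 and 6 of the ions. The left-out controls 1, 2, 4, 5 and 6 lay at -0.80, -1.62, -0.69, -1.45 and 0.17. With a control left out, the control median rests on 4 libraries. The other libraries chose the targets and also set the 0 line, for which the controls had to be high, so a value below 0 is no measure of change by itself. The values of left-out controls are what exposed libraries can be set beside. All 15 exposed libraries lay below 0, and so did 4 of the 5 controls. Control 2 lay below all 10 LCO libraries and control 5 below 9 of them, and both lay above 3 ion libraries. When a control was left out, 118 to 156 of the 200 targets chosen were members, against 149 to 183 when an exposed library was.

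**Figure D5:**
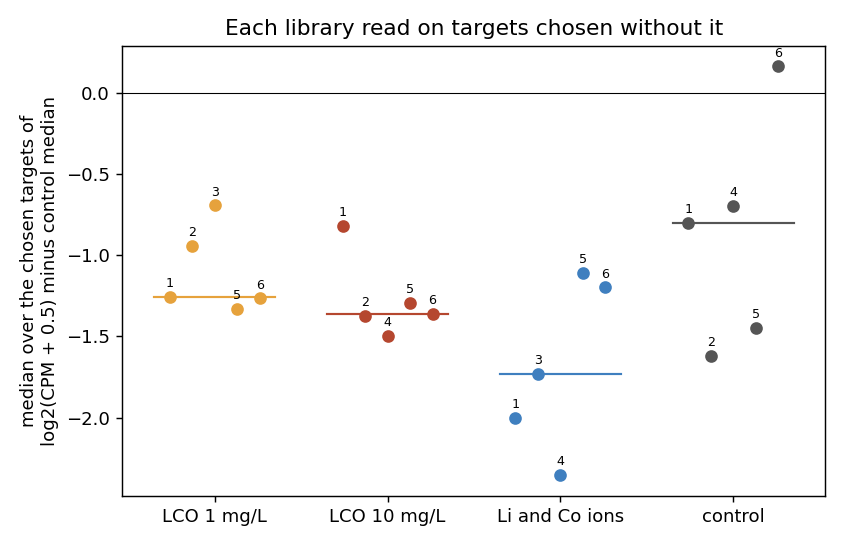
Median log2 difference between a left-out library and the control median of the others (vertical axis), over the 200 targets chosen without that library, for the 20 libraries (points, with a line at each group median) by group in the order lower dose, higher dose, ions and control. Controls 2 and 5, at -1.62 and -1.45, lie among the exposed libraries, and control 6, at 0.17, is the only library above 0.

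Length and fractional counts were not used by the rule. The members had a median length of 1578 bases, against 2074 over the 12634 targets. Their median control level, which the rule did use as CPM, was 18.1 TPM, against 15.8 TPM. A fractional count in at least 1 library was held by 58 members (29.0%), against 21.3% of the 12634, and such targets may share reads with a similar one. A count of 0 in at least 1 library occurred in 17 members. The identifier numbers of 19 members were next to that of another member, and these could be neighbouring or overlapping gene models, which was not tested. The same counts over the 12634 targets are not given here, so neither the 17 nor the 19 is read as many or few.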

How the data were processed

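RNA was sequenced from 20 pools of whole animals, 5 per group. Estimated counts were deposited per target, per the file headers, with no normalization, and whole numbers made up 87.4% to 90.2% of each library. The same tables held deposited TPM values, scaled by effective length and depth, and target length in bases. Counting software, annotation and build were not given in the sources used here. Groups follow the titles.

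The rule on medians was applied to CPM from library sums. The members and lists were chosen with earlier results of these data known, and the 4 control patterns and the 2 even members shown were chosen after their values were seen. Named targets are, for each comparison, the 2 members with the largest and the 2 with the smallest ratio of medians (only the smallest against control). Calls came from edgeR 4.0.16 in R 4.3.3: counts rounded, filterByExpr (minimum count 10, minimum total count 15, 16163 targets kept), TMM scaling, 1 quasi-likelihood fit by group alone, two-sided tests and Benjamini-Hochberg adjustment over all tested targets at 0.05. The p-values behind the calls measure only the spread between these pools. The fit was tested on simulated data first. Counting error was not computed separately and weighs most at counts near 0. No 2 libraries of a group were alike within sampling noise (smallest chi-square per degree of freedom 21.3).

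Alternatives were DESeq2 1.42.0 size factors and Wald test, no filter, a minimum mean CPM of 5, a fit of the compared groups alone, replicate number as a blocking term, limma 3.58.1 on log2(TPM + 1), each library left out in turn, and 3 libraries left out together (control 1, lower-dose library 5 and ions library 5). For the rule, they were the mean, TMM-scaled CPM, TPM, a ratio limit of 0.5 and a control minimum of 10. TMM scaling moved the median log2 ratio over the 12634 targets by under 0.1 in each exposure. Figures were drawn with matplotlib 3.10.9.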

Additional observations from a re-analysis of the deposited data

Results flagged for a closer look

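In the 12 members named by their ratios and the left-out library values, 52 groups of 5 values were examined for 1 library far from the others, and 10 were found, where the gap to the nearest library exceeded 0.71 of the group's range. Chance alone gives about 1 in 20 only for values with a normal spread. The levels here were CPM without logs, in members picked for extreme ratios, and all 10 found were the highest library of their group. The 10 of 52 are therefore not set against that rate. Control 1 stood far above the other controls for KZS03199, at 431 CPM with the next at 116 CPM (gap 0.73 of the range), and for KZS01586, at 282 CPM with the next at 73.1 CPM (0.741).

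KZS21327 had the widest gap: library 5 of the lower dose held 88.1 CPM, and the next library held 0.238 CPM (0.997). In the same target, ions library 6 held 14.3 CPM against 3.27 CPM in the next (0.776). Ions library 6 was also the highest for KZS14190, at 51.6 CPM against 23.9 CPM (0.76), and for KZS08887, at 50.3 CPM against 13.4 CPM (0.777).

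Library 1 of the higher dose, the library whose treatment tag reads untreated, was the highest of its group for KZS16607, at 16.2 CPM against 8.38 CPM (0.75), and for KZS17850, at 2.79 CPM against 1.04 CPM (0.925). Library 5 of the higher dose was the highest for KZS00350, at 1.55 CPM against 0.588 CPM (0.812). Library 3 of the lower dose was the highest for KZS10423, at 44.8 CPM against 14.3 CPM (0.772).

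Members whose levels differed between exposures by the test of the difference itself (edgeR, Benjamini-Hochberg adjusted p under 0.05) numbered 14 for the higher dose against the lower, where 4.7% of all tested targets were called lower and 1.58% higher. They numbered 14 for the higher dose against the ions (13.8% lower and 11.3% higher over all tested targets), and 44 for the lower dose against the ions (20.8% and 20.1%). The rule limits these ratios from one side, so the counts say nothing particular to the members.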

How the results depend on the processing

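Of 109 alternatives other than single libraries left out, 87 stayed within 1.5 times the count (or 1 SD of a left-out library value). The other 22 did not, and the cause was not tested. For the lower dose against control, 59 members were called, against 91 with the DESeq2 Wald test, 37 with only the groups compared, 122 without controls 2 and 5, and 12 without controls 1, 4 and 6. Over all tested targets, 597 of 16163 were called lower, against 1015 of 16805, 511 of 15524, 1059 of 16541 and 194 of 16788. For the higher dose against control, 119 members were called, against 79 with a mean CPM of at least 5 (139 members tested) and 66 without controls 1, 4 and 6. Over all tested targets, 2706 of 16163 were called lower, against 2224 of 10755 and 1649 of 16788. For the ions against control, 147 members were called, against 82 without controls 1, 4 and 6. Over all tested targets, 3988 of 16163 were called lower, against 2353 of 16788. For the higher dose against the lower, 14 members were called, against 41 with the DESeq2 Wald test, 6 with limma, 40 without control 1, lower-dose library 5 and ions library 5, and 37 without controls 1, 4 and 6. Over all tested targets, 760 were called lower and 255 higher, against 1173 and 478, 993 and 186, 1287 and 660, and 1032 and 298. For the higher dose against the ions, 14 members were called, against 23 with only the groups compared, 24 without those 3 libraries, 23 without controls 2 and 5, and 24 without controls 1, 4 and 6. Over all tested targets, 2224 were called lower and 1833 higher, against 1750 and 1396, 3093 and 2856, 2393 and 1988, and 2554 and 2015. For the lower dose against the ions, 44 were called, against 28 with limma. Over all tested targets, 3360 were lower and 3247 higher, against 2841 and 3392. The rule was met by 348 targets, against 99 with a ratio limit of 0.5, 216 without those 3 libraries, and 16 with the lowest control in place of the median.

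Replicate numbers did not pair the libraries: over 25 same-numbered pairs the median correlation of deviations was -0.0682 (range -0.426 to 0.492), and 4 libraries correlated best with their own number. With the replicate block, 39, 113 and 125 members were called lower for the lower dose, the higher dose and the ions against control. Of all tested targets, 260, 2508 and 3519 were. Between exposures, in the order above, 2, 10 and 22 members were called. Of all tested targets, 421, 1238 and 2782 were lower and 172, 1227 and 2778 higher.

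With each library left out alone, counts against control were 31 to 78 (lower dose), 106 to 123 (higher dose) and 116 to 168 (ions). Between exposures, in the order above, they were 3 to 28, 5 to 19 and 24 to 57. Targets meeting the rule ran from 218 without control 6 to 460 without control 5. For the lower dose against control, the count of members was 37 without control 6, 31 without library 1 of that dose and 37 without its library 3. In the same order, 321, 199 and 223 of all tested targets were called lower. For the lower dose against the ions it was 24 without library 2 of that dose, 25 without ions library 3 and 27 without ions library 4. For the higher dose against the ions it was 5 without library 5 of that dose, 6 without ions library 4, and 9 without library 1 of that dose or ions library 1. For the 2 doses, 11 of the 20 libraries moved it by over 1.5 times: it was 26 without control 1, 22 without ions library 5, 28 and 26 without libraries 1 and 5 of the lower dose, 3 and 6 without its libraries 2 and 3, and 7, 4, 7, 6 and 4 without libraries 1, 2, 4, 5 and 6 of the higher dose. The 40 left-out library values under TMM scaling or a pseudocount of 0.1, among the 87, gave 0 reversals and stayed within 1 SD of their group's libraries. Whether depth plays a part in the 17 members with a count of 0 was not tested.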
